A study of Homo sapiens with 3 samples.

Results

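The genes described are the collagen chains and the enzymes that modify collagen, as RNA-seq measured them in SK-Hep-1, a long-established human cell line from a liver tumour. They are all protein-coding rows of the deposited table whose symbol is a collagen chain (COL, a type number, A, a chain number), a lysyl oxidase (LOX, LOXL1 to LOXL4), a lysyl hydroxylase (PLOD1 to PLOD3) or an alpha subunit of prolyl 4-hydroxylase (P4HA1 to P4HA3). This rule found 50 genes, 39 chains and 11 enzymes, of 22464 genes listed. Of these 50, 25 had a mean of at least 1 FPKM over the 3 libraries, 15 chains and 10 enzymes, and only these 25 enter counts of differences.

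The study compared 3 stable SK-Hep-1 lines, each made by lentiviral infection with a short hairpin RNA and each sequenced as 1 library. The sh1089-1 and sh1089-2 lines carry different hairpins against LINC01089, a long noncoding RNA, and the shNC line carries a negative control hairpin. All 3 lines therefore share the infection and the parent cells. The labels do not say whether a line is a clone or a pool, and the level of LINC01089 was not analysed here. With 1 library a group there is no spread between replicates, so no difference below has a test, and its error is given only as a 95% counting interval on reads recovered from the FPKM steps.

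Collagens are secreted or membrane-bound proteins whose chains wind in threes into a triple helix. Prolyl 4-hydroxylases, in the endoplasmic reticulum, make the hydroxyproline that keeps the helix stable, and lysyl hydroxylases make the hydroxylysine used for sugars and crosslinks. Outside the cell, lysyl oxidases oxidise lysine and hydroxylysine so that neighbouring molecules crosslink. Liver stroma is known for fibrillar collagens made by stellate cells, and the sinusoids for a thin matrix with type IV and type XVIII collagen.

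The libraries held 9528312 reads (sh1089-1), 8359832 reads (sh1089-2) and 10698480 reads (shNC). Of 10 hepatocyte markers 6 were listed and summed to 6.39, 8.36 and 5.19 FPKM in sh1089-1, sh1089-2 and shNC, most of it SERPINA1, while TTR, APOA1 and FGB had no read in any library. Of 9 endothelial markers 8 were listed, none reached a mean of 1 FPKM, and their sums were 0.917, 0.702 and 1.11 FPKM. The 9 fibroblast and stellate markers summed to 1191, 1466 and 939 FPKM, nearly all of it VIM, and DCN and PDGFRA had at most 6 reads in a library. Of the 5 that passed the filter, THY1 (12.2, 11.9 and 6.85 FPKM) and VIM (1171, 1445 and 922 FPKM) were above shNC in both hairpin libraries. LUM (1.22, 0.896 and 2.17 FPKM) was below it in both, PDGFRB had 1.26, 1.94 and 2.03 FPKM, and ACTA2 had 4.16, 4.46 and 4.46 FPKM. The median difference of the 5 in log2(FPKM + 1) was −0.08 in sh1089-1 and 0.00 in sh1089-2. Below the filter, DES had 0, 0.194 and 0.607 FPKM. RGS5, also below it, lay the other way, with 0.966, 1.39 and 0.240 FPKM on 61, 77 and 17 reads. Its ratios to shNC were 4.03 (2.32 to 7.36) in sh1089-1 and 5.80 (3.40 to 10.5) in sh1089-2. Of 5 leukocyte markers 4 were listed, with sums of 2.51, 2.37 and 2.56 FPKM. The labelled tissue, liver, is thus not matched by hepatocyte markers, and the part of these markers in any result below was not tested. In bulk RNA, fewer cells carrying a transcript and less transcript per cell cannot be told apart.

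Together the 50 genes took 0.208% of the reads in sh1089-1 (95% Clopper-Pearson interval 0.205 to 0.210), 0.231% in sh1089-2 (0.228 to 0.234) and 0.226% in shNC (0.224 to 0.229). Chains and enzymes shared this about evenly, with 0.102%, 0.116% and 0.114% in chains and 0.106%, 0.115% and 0.113% in enzymes. Both shares were lowest in sh1089-1.

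**Figure D1:**
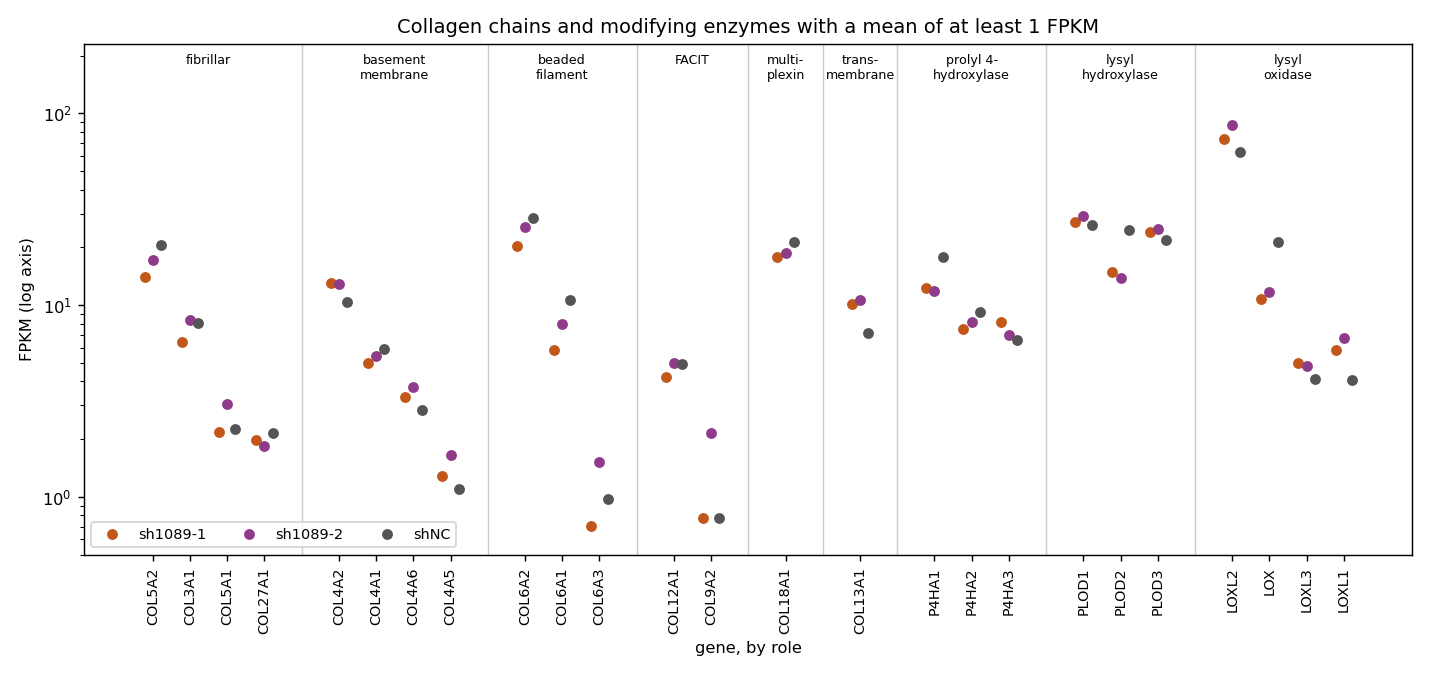
FPKM (log axis) of the 25 genes with a mean of at least 1 FPKM, grouped by role, with 1 point for each library. LOXL2 stands above every other gene in all 3 libraries (73.8, 87.2 and 63.2 FPKM in sh1089-1, sh1089-2 and shNC), and LOX, PLOD2 and P4HA1 have both hairpin points below the shNC point.

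Differences were taken in log2(FPKM + 1), a scale that understates low genes, and a gene was counted as higher or lower past 1.5-fold on it (0.585). In sh1089-1 against shNC, 0 of the 25 genes counted as higher and 3 as lower (COL6A1, LOX and PLOD2), which is 12.0%. Among all 10313 protein-coding genes past the same filter, 4.55% were higher and 4.56% lower. In sh1089-2 against shNC, 2 genes were higher (COL9A2 and LOXL1) and 2 lower (LOX and PLOD2), 8.0% each, where 4.04% and 4.15% of all protein-coding genes were. COL9A2 had 0.772 FPKM in sh1089-1 and 0.776 in shNC, so it passed the filter only through sh1089-2, where it was high. Both comparisons use the same shNC library, so a value peculiar to that library enters both. No gene of the 25 passed 2-fold on this scale in any comparison, where at most 1.02% of all protein-coding genes did in either direction. The median difference of the 25 was −0.08 in sh1089-1 and 0.07 in sh1089-2, beside −0.02 and −0.04 over all protein-coding genes. By any amount, 10 genes were above and 15 below shNC in sh1089-1, where 46.5% and 53.5% of all protein-coding genes were. In sh1089-2, 15 were above and 10 below, where 45.0% and 55.0% of all protein-coding genes were. Rescaled to TPM, 7.05% of all protein-coding genes were higher and 4.62% lower in sh1089-2, and COL13A1 joined the higher genes.

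**Figure D2:**
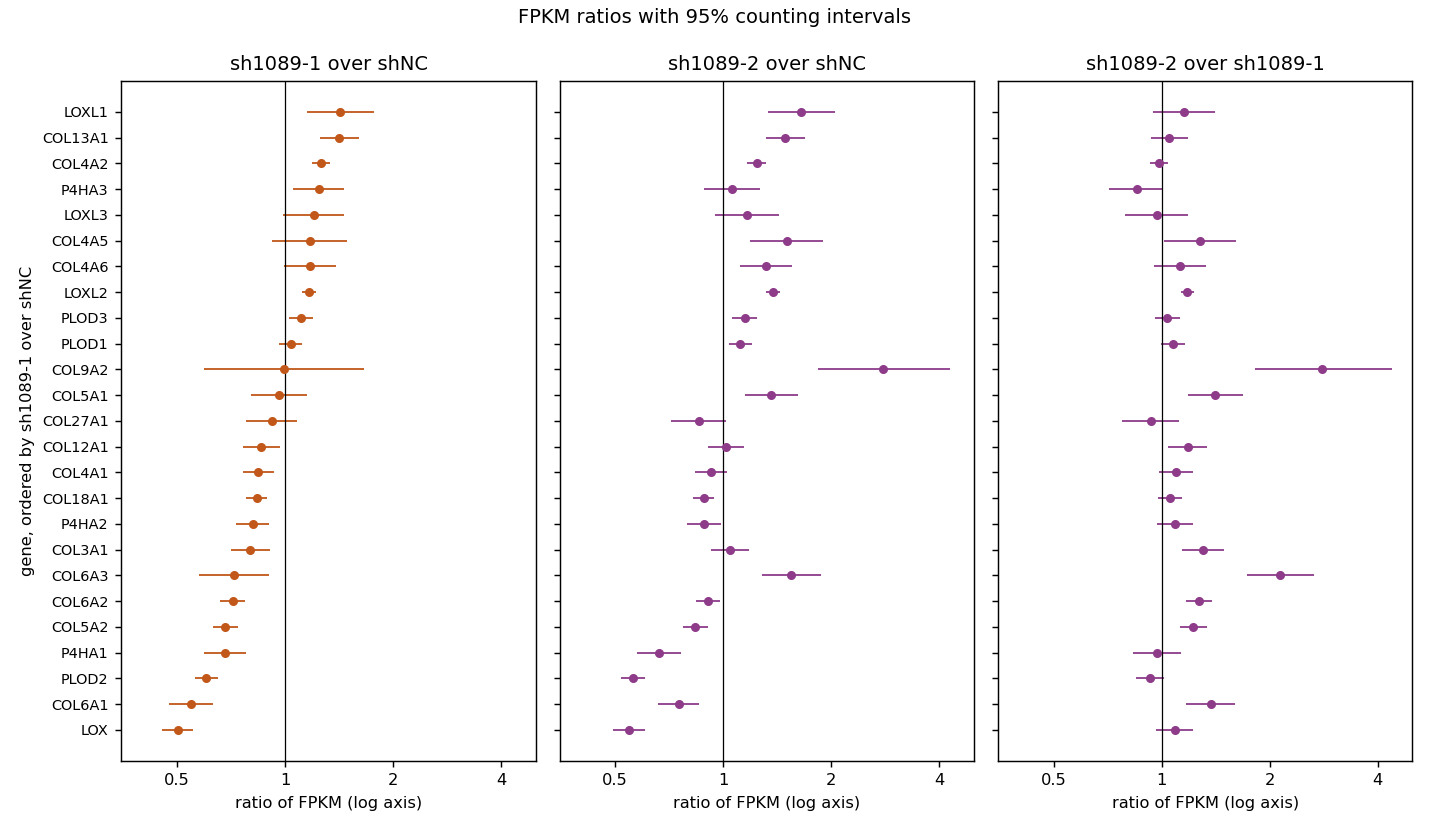
Ratio of FPKM (log axis) for the 25 genes in sh1089-1 over shNC, sh1089-2 over shNC and sh1089-2 over sh1089-1, with bars for 95% counting intervals. LOX, COL6A1 and PLOD2 lie farthest below 1 in sh1089-1, and COL9A2 and COL6A3 lie farthest above 1 in sh1089-2 over sh1089-1.

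The lysyl oxidases were led by LOXL2, which also acts on lysines outside collagen and is the best known of the family in tumour matrix. It had 73.8 FPKM in sh1089-1, 87.2 in sh1089-2 and 63.2 in shNC, on 3861 to 4158 reads. The hairpin libraries both lay above the control, by 1.17-fold (1.12 to 1.22) and 1.38-fold (1.32 to 1.44).

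LOX, the founding member and a main crosslinker of fibrillar collagen and elastin, had the opposite pattern. Its level was 10.7 FPKM in sh1089-1 and 11.7 in sh1089-2, against 21.4 in shNC, on 568, 542 and 1271 reads. Both hairpin values were about equal to each other and far below the control, with differences of −0.93 and −0.82 in log2(FPKM + 1). As a plain ratio, LOX in sh1089-1 was lower by a factor of 1.99 (1.80 to 2.20) and in sh1089-2 by a factor of 1.83 (1.66 to 2.03). The gene lies on chromosome 5 from 122063195 to 122078360, minus strand, in GRCh38, and 138 of its 5547 exon bases are also exon of SRFBP1 on the other strand. SRFBP1 itself had 6.27 and 7.50 FPKM in the hairpin libraries and 10.4 in shNC, and whether counting used the strand is not given in the sources used here.

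LOXL1, which is needed for elastic fibres, was higher in the hairpin lines, at 5.83 and 6.74 FPKM against 4.09 in shNC. That made it 1.43-fold (1.15 to 1.77) and 1.65-fold (1.33 to 2.04) above the control, and only the sh1089-2 difference, 0.61, passed 1.5-fold. LOXL3 had 4.97, 4.82 and 4.14 FPKM in sh1089-1, sh1089-2 and shNC, with intervals that hold 1 in each comparison, and 14.3% of its exon bases are also exon of HTRA2 on the other strand. LOXL4 had 0.438, 0.266 and 0.416 FPKM, on 15, 8 and 16 reads. Smaller overlaps were found for LOXL2 (2.10% of exon bases, with ENTPD4 on the same strand), P4HA3 (4.14%, with PPME1) and PLOD3 (7.56%, with ZNHIT1), the last 2 on the other strand.

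Within the family's summed FPKM, LOX therefore took 11.2% in sh1089-1 and 10.6% in sh1089-2, against 23.0% in shNC, and LOXL2 took 77.1% and 78.8%, against 67.8%. These shares rest on the gene length the authors used. With the coding length in its place, LOX took 18.9% and 17.9%, against 35.4% in shNC.

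**Figure D3:**
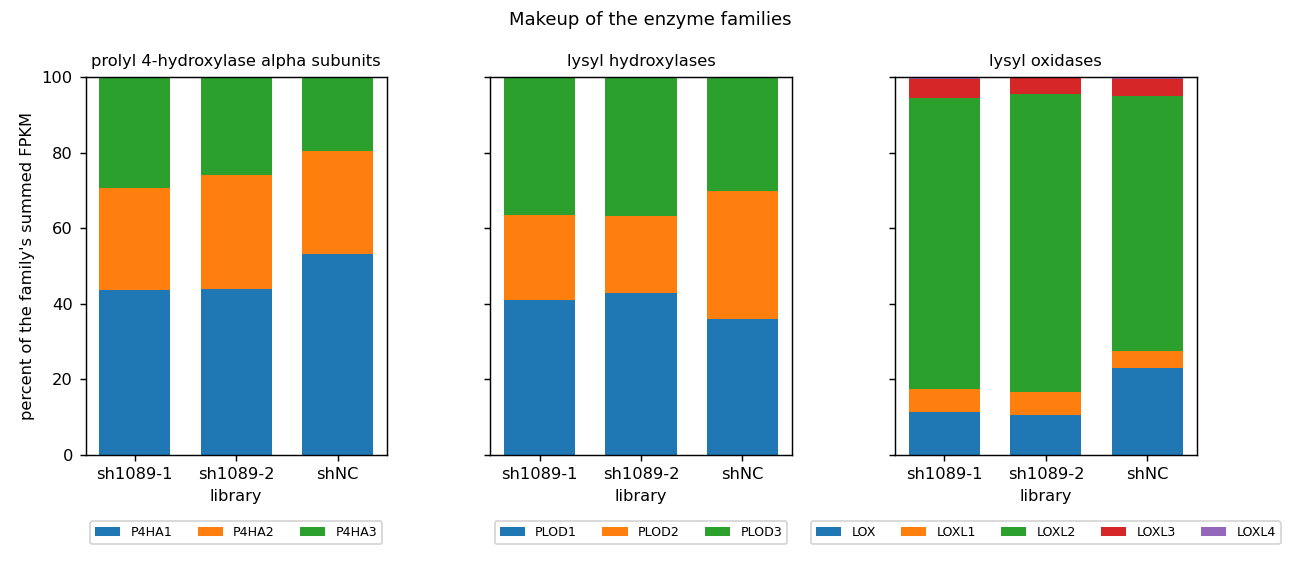
Share of each enzyme family's summed FPKM (percent) taken by each member, with 1 bar for each library. LOX, PLOD2 and P4HA1 take smaller shares in sh1089-1 and sh1089-2 than in shNC, as the values in the text show.

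Among the lysyl hydroxylases, PLOD2 stood apart from its relatives. PLOD2 makes the hydroxylysine of the telopeptides, the short ends where fibrillar crosslinks form. It had 14.9 FPKM in sh1089-1 and 13.8 in sh1089-2, against 24.7 in shNC, on 1089, 887 and 2026 reads. The differences of −0.69 and −0.79 both passed 1.5-fold. As a plain ratio PLOD2 was lower by a factor of 1.66 in sh1089-1 (1.54 to 1.79) and of 1.78 in sh1089-2 (1.65 to 1.93). PLOD1, which acts on lysines in the helix, had 27.1, 29.1 and 26.1 FPKM, and PLOD3, which also attaches sugars, 24.2, 25.1 and 21.9 FPKM. Both were within 1.15-fold of shNC in either hairpin library. PLOD2 took 22.5% and 20.3% of the family's FPKM in the hairpin libraries and 34.0% in shNC, so it was the lowest of the 3 enzymes in the hairpin lines and lay between PLOD1 and PLOD3 in the control. By coding length its shares were 28.2%, 25.6% and 41.0%, and it led in shNC. It lies on chromosome 3 from 146069440 to 146163653, minus strand.

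The prolyl 4-hydroxylase subunits gave a similar picture on a smaller scale. P4HA1, the main catalytic subunit in most cells, had 12.2 and 11.9 FPKM in sh1089-1 and sh1089-2, against 17.9 in shNC, on 360, 307 and 593 reads. It was 1.47-fold (1.28 to 1.68) and 1.51-fold (1.31 to 1.74) lower, and its differences of −0.52 and −0.56 fell just short of the size counted. It lies on chromosome 10 from 73007217 to 73096974, minus strand. P4HA2 had 7.52, 8.17 and 9.25 FPKM, lower by a factor of 1.23 (1.11 to 1.37) and of 1.13 (1.02 to 1.26). P4HA3 had 8.21, 6.99 and 6.61 FPKM, above the control in sh1089-1 only by more than its counting interval (1.05 to 1.46). P4HA1 took 43.7% and 43.9% of the summed FPKM in the hairpin libraries and 53.1% in shNC, while by coding length it was P4HA2 that took most, 48.9%, 53.1% and 49.9%. The order of these subunits thus depends on the length used.

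LOX, PLOD2 and P4HA1 are each known, from other cells, to be induced under low oxygen through hypoxia-inducible factors, which bind a short core motif. A RefSeq promoter window of each gene (GRCh38.p14, minus strand, 250 bases before to 50 after the start) is shown because the 3 genes were lower side by side. The windows are at chr5:122078210-122078509 for LOX, chr3:146161135-146161434 for PLOD2 and chr10:73096817-73097116 for P4HA1. LOX has other windows too, and the one shown is that with the most matches. Capitals mark ACGTG on either strand, which reads CACGT on the other. No other form of the core was searched, so the matches counted below are of ACGTG alone.
LOX: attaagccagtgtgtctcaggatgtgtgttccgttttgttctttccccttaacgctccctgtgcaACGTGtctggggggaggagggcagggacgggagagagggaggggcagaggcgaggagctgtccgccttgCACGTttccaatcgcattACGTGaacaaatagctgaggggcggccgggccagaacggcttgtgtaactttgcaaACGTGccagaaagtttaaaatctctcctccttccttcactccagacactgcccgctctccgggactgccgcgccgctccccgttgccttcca
PLOD2: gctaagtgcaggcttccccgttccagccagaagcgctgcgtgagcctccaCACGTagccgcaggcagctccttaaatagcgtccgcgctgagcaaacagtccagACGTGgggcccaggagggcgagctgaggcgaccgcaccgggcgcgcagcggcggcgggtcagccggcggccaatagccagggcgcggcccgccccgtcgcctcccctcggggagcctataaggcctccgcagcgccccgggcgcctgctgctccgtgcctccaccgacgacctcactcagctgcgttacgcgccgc
P4HA1: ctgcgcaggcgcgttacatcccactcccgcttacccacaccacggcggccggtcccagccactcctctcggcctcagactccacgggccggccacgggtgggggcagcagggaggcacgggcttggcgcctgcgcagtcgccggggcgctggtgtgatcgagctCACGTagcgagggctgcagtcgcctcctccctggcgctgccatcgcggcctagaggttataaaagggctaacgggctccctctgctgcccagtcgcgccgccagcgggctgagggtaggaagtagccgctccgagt

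LOX held 4 matches in this window, PLOD2 2 and P4HA1 1. The other LOX windows, starting at 122077125 and 122077174, held 1 match each. The motif is short and common: 21.4% of the 35116 windows in the table held it, and 32.9% of 8425 expressed protein-coding genes in at least 1 window. Of the 20 genes here that had a mean of at least 1 FPKM and a window, 5 did (25.0%), the others being COL12A1 and COL5A1. P4HA2, also lower, and LOXL1, which was higher, held none. A match is a run of letters and does not show binding. Of the factors themselves, HIF1A had 30.2, 30.6 and 32.5 FPKM and EPAS1 10.6, 13.7 and 52.3 FPKM in sh1089-1, sh1089-2 and shNC, and their part in these values was not tested. The motif, the factors and the set of LOX, PLOD2 and P4HA1 were chosen after the values were seen. Of the 10 enzymes past the filter, 4 were below shNC in each hairpin library, namely this set and P4HA2, and 6 were above. Among the latter, LOXL2 had ratios to shNC of 1.17 and 1.38 in sh1089-1 and sh1089-2, and PLOD1 1.04 and 1.12. The set was picked because its genes were lower, so its direction is no result about genes of low oxygen. Which of the other enzymes, those above shNC included, respond to low oxygen was neither surveyed nor tested.

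Basement membrane collagen was present through 4 of the 6 type IV chains. COL4A2 was the most abundant, with 13.0 FPKM in sh1089-1 and 12.8 in sh1089-2, against 10.3 in shNC, and COL4A1, its partner in the common heterotrimer, had 4.97 and 5.45 FPKM, against 5.90. The chains lay on opposite sides of the control: COL4A2 was 1.26-fold (1.19 to 1.34) and 1.24-fold (1.17 to 1.32) higher, whereas COL4A1 was lower, by a factor of 1.19 in sh1089-1 (1.08 to 1.31) and of 1.08 in sh1089-2, where the interval holds 1 (0.980 to 1.20). The ratio of COL4A1 to COL4A2 was 0.381 in sh1089-1 (0.350 to 0.415) and 0.425 in sh1089-2 (0.389 to 0.464), against 0.571 in shNC (0.528 to 0.617). The hairpin intervals overlap each other and neither reaches that of shNC.

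These genes lie head to head on chromosome 13, COL4A1 on the minus strand from 110148963 to 110307233 and COL4A2 on the plus strand from 110305812 to 110513209, and are known to share a promoter region. Their RefSeq start sites are 127 bases apart. The COL4A2 window (GRCh38.p14, chr13:110307034-110307333, plus strand) is shown because both chains start near or within it and yet lay on opposite sides of the control in sh1089-1. Capitals mark the 226 bases that also belong to the COL4A1 window.
COL4A2: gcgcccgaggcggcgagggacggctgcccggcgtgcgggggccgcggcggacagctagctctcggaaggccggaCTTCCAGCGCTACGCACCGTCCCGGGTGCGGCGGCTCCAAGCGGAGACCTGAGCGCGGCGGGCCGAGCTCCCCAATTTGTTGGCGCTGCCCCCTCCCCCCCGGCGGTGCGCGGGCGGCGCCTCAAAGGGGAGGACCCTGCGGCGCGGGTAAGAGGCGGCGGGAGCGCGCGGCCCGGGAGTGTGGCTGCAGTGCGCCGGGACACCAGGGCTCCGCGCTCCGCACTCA

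COL4A5 and COL4A6 are likewise neighbours on chromosome X, with start sites 380 bases apart. COL4A6 had 3.34, 3.75 and 2.85 FPKM in sh1089-1, sh1089-2 and shNC, and COL4A5 1.28, 1.64 and 1.10 FPKM. Both were highest in sh1089-2, where COL4A6 was 1.32-fold (1.11 to 1.56) and COL4A5 1.5-fold (1.19 to 1.90) above shNC. Unlike in the COL4A1 pair, the ratio of COL4A5 to COL4A6 was alike in the 3 libraries, at 0.385, 0.438 and 0.384, with overlapping intervals. COL4A3 and COL4A4, the chains of the mature kidney filter, had 0 to 20 reads, and the 20 were those of COL4A4 in sh1089-2, against 4 in sh1089-1 and 1 in shNC (a ratio to shNC of 25.6, 4.09 to 1061). All 6 type IV chains together took 1.14 times the shNC share of reads in sh1089-1 (1.09 to 1.19) and 1.18 times in sh1089-2 (1.12 to 1.24).

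**Figure D4:**
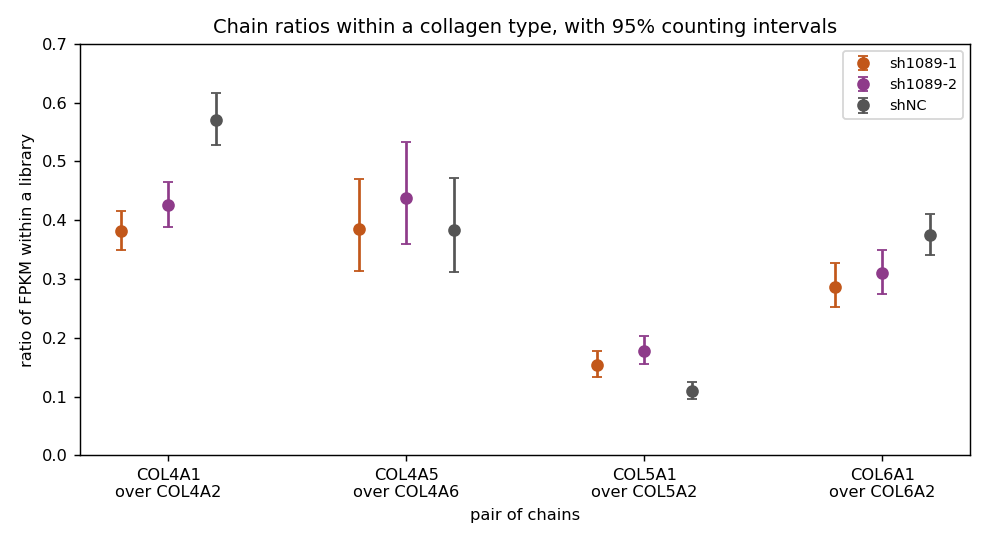
Ratio of FPKM between 2 chains of a collagen type within each library, with bars for 95% counting intervals. The COL4A1 to COL4A2 ratio is 0.381 and 0.425 in sh1089-1 and sh1089-2 and 0.571 in shNC, while the COL5A1 to COL5A2 ratio is highest in sh1089-2 and lowest in shNC.

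Beaded filament collagen, type VI, is built from chains of COL6A1, COL6A2 and one more chain, most often COL6A3, in equal number. COL6A2 led with 20.2 FPKM in sh1089-1 and 25.7 in sh1089-2, against 28.4 in shNC. COL6A1 had 5.81 and 7.97 FPKM, against 10.6, on 296, 356 and 607 reads. For both chains sh1089-1 was lowest, sh1089-2 between and shNC highest. COL6A1 was lower by a factor of 1.83 in sh1089-1 (1.59 to 2.11), past the size counted, and of 1.33 in sh1089-2 (1.17 to 1.52). The factors for COL6A2 were 1.40 (1.29 to 1.52) and 1.10 (1.02 to 1.19). The ratio of COL6A1 to COL6A2 was 0.287 in sh1089-1 (0.252 to 0.327) and 0.310 in sh1089-2 (0.275 to 0.350), against 0.374 in shNC (0.341 to 0.411), and the interval of sh1089-2 overlaps that of shNC. COL6A3 was far less abundant per length, at 0.706 FPKM in sh1089-1, 1.51 in sh1089-2 and 0.976 in shNC. It was below shNC by a factor of 1.38 in sh1089-1 (1.11 to 1.73) and above it by 1.55 in sh1089-2 (1.28 to 1.87), so the hairpin lines lay on either side of the control. The type VI chains together took 0.674 times the shNC share of reads in sh1089-1 (0.631 to 0.719) and 0.921 times in sh1089-2 (0.866 to 0.980).

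COL6A1 and COL6A2 are neighbours on chromosome 21, at 45981737 to 46005050 and 46098097 to 46132849 on the plus strand, and COL18A1 lies nearby, from 45405137 to 45513720. COL18A1, the multiplexin whose end fragment is endostatin, had 17.8, 18.8 and 21.3 FPKM, lower in the hairpin libraries by a factor of 1.20 (1.12 to 1.29) and of 1.14 (1.06 to 1.22). Of its exon bases 16.4% are also exon of SLC19A1 on the other strand, which had 9.44, 7.68 and 8.18 FPKM. Around COL6A1, up to 10 on each side, 17 expressed genes outside the collagen group were taken. Their median differences were 0.14 in sh1089-1 and 0.17 in sh1089-2, opposite in sign to COL6A1. COL6A2 (−0.47 and −0.14) and COL18A1 (−0.25 and −0.17) lie in that span, share the sign of COL6A1 and were left out of the medians. Around LOX the same medians, over 20 genes, were −0.20 and −0.18, of the same sign as LOX but smaller. They were −0.08 and −0.09 around PLOD2 and −0.13 and −0.05 around P4HA1, also of the gene's sign but smaller. For LOXL1 they were −0.06 and −0.08, opposite in sign to that gene. For COL9A2 they were −0.19 and 0.02, and 0.21 in sh1089-2 against sh1089-1, where COL9A2 itself differed by 0.83.

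Fibrillar collagens, the rope-like chains of tendon, skin and scar, were mostly low. COL1A1, the main chain of type I collagen, had 0.460, 0.670 and 0.600 FPKM on 43, 55 and 63 reads, and its partner COL1A2 had 2, 5 and 5 reads. COL2A1, the cartilage chain, had no read in any library, which allows up to 3 reads of each library. COL5A2 was the most abundant fibrillar chain, with 14.1 FPKM in sh1089-1, 17.2 in sh1089-2 and 20.6 in shNC. Both hairpin lines were below the control, by a factor of 1.47 in sh1089-1 (1.35 to 1.59) and of 1.20 in sh1089-2 (1.11 to 1.29). COL5A1, which pairs with it in type V collagen, had 2.17, 3.06 and 2.25 FPKM, equal to the control within counting error in sh1089-1 and 1.36-fold (1.15 to 1.61) above it in sh1089-2. The ratio of COL5A1 to COL5A2 was 0.154 (0.133 to 0.178) and 0.177 (0.155 to 0.202) in the hairpin libraries and 0.109 (0.0954 to 0.124) in shNC. Both hairpin intervals lie above that of shNC. COL3A1, which forms fibrils in soft tissue, had 6.44, 8.39 and 8.04 FPKM, lower than shNC only in sh1089-1 (1.25-fold, 1.10 to 1.42). COL27A1 had 1.97, 1.84 and 2.15 FPKM, with intervals that hold 1. Together the 11 fibrillar chains took a share of reads 0.764 times that of shNC in sh1089-1 (0.722 to 0.810) and 0.936 times in sh1089-2 (0.885 to 0.990).

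The chains that sit on fibrils or in membranes numbered 3 past the filter. COL12A1, which coats fibrils, had 4.21, 4.98 and 4.90 FPKM, lower than shNC in sh1089-1 only (1.16-fold, 1.03 to 1.31). COL9A2, a cartilage fibril coat chain, had 0.772 FPKM in sh1089-1 and 2.16 in sh1089-2, against 0.776 in shNC, on 31, 76 and 35 reads. The sh1089-2 library alone was high, 2.78-fold over shNC (1.84 to 4.27) and 2.79-fold over sh1089-1 (1.82 to 4.39). COL13A1, a transmembrane collagen of cell adhesion sites, was above shNC in both hairpin lines, with 10.2 and 10.7 FPKM against 7.18, or 1.42-fold (1.25 to 1.61) and 1.49-fold (1.31 to 1.69).

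The 25 genes below a mean of 1 FPKM, 24 chains and LOXL4, reached at most 0.714 FPKM in any library. Of them, 8 had 39 to 161 reads over the 3 libraries (COL1A1, COL7A1, COL8A1, COL9A3, COL11A2, COL16A1, COL17A1 and LOXL4), 15 had 1 to 25, and COL2A1 and COL14A1 had none. COL6A3, at a mean of 1.06 FPKM, was the last gene inside the limit, and COL11A2, at 0.588, the first outside it. COL9A3, a partner of COL9A2, had 15, 19 and 37 reads in sh1089-1, sh1089-2 and shNC, so it was lower than shNC in sh1089-1 (a ratio of 0.455, 0.232 to 0.850) and, unlike COL9A2, not high in sh1089-2. COL7A1, of the anchoring fibrils of skin, had 46, 40 and 68 reads. Apart from COL9A3 in sh1089-1 and COL4A4 in sh1089-2, the counting interval held 1 for each of the 25 genes against shNC, so no other difference was detectable at this depth.

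The hairpin lines were also set against each other, a comparison that leaves shNC out. Of the 25 genes, 19 were higher in sh1089-2 than in sh1089-1 and 6 lower (76.0% and 24.0%), beside 47.8% and 52.2% of all protein-coding genes. The chains gave most of this, with 13 of 15 higher and a median difference of 0.21, against 6 of 10 enzymes and a median of 0.08. The counting interval of the ratio lay above 1 for 9 chains and 1 enzyme, LOXL2, which is 10 of the 25 genes, and below 1 for none. Among 10283 protein-coding genes past the filter with recovered reads, the interval lay above 1 for 18.4% and below 1 for 21.1%. COL6A1, COL6A2 and COL6A3 were 1.37-fold (1.17 to 1.60), 1.27-fold (1.17 to 1.38) and 2.14-fold (1.73 to 2.67) higher in sh1089-2. COL5A1 was 1.41-fold (1.18 to 1.69), COL3A1 1.30-fold (1.14 to 1.49) and COL5A2 1.23-fold (1.12 to 1.34) higher. For LOX, PLOD2 and P4HA1 the interval of sh1089-2 over sh1089-1 held 1, with ratios of 1.09 (0.965 to 1.23), 0.928 (0.849 to 1.02) and 0.972 (0.832 to 1.13). Only COL9A2 passed 1.5-fold upwards on the log2(FPKM + 1) scale, 4.0% of the genes beside a background of 1.22%, and none passed downwards, beside 1.01%. COL9A2 and COL6A3 passed the filter only through sh1089-2, being below 1 FPKM in the other libraries. The filter thus favours them as higher in sh1089-2, here and in the counts above. With TPM, COL6A3 joined COL9A2, 8.0% of the genes beside a background of 2.96%, and none passed downwards, beside 1.45%. With median-of-ratios scaling, COL9A2 alone passed upwards, beside 1.43%, and none downwards, beside 0.795%.

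**Figure D5:**
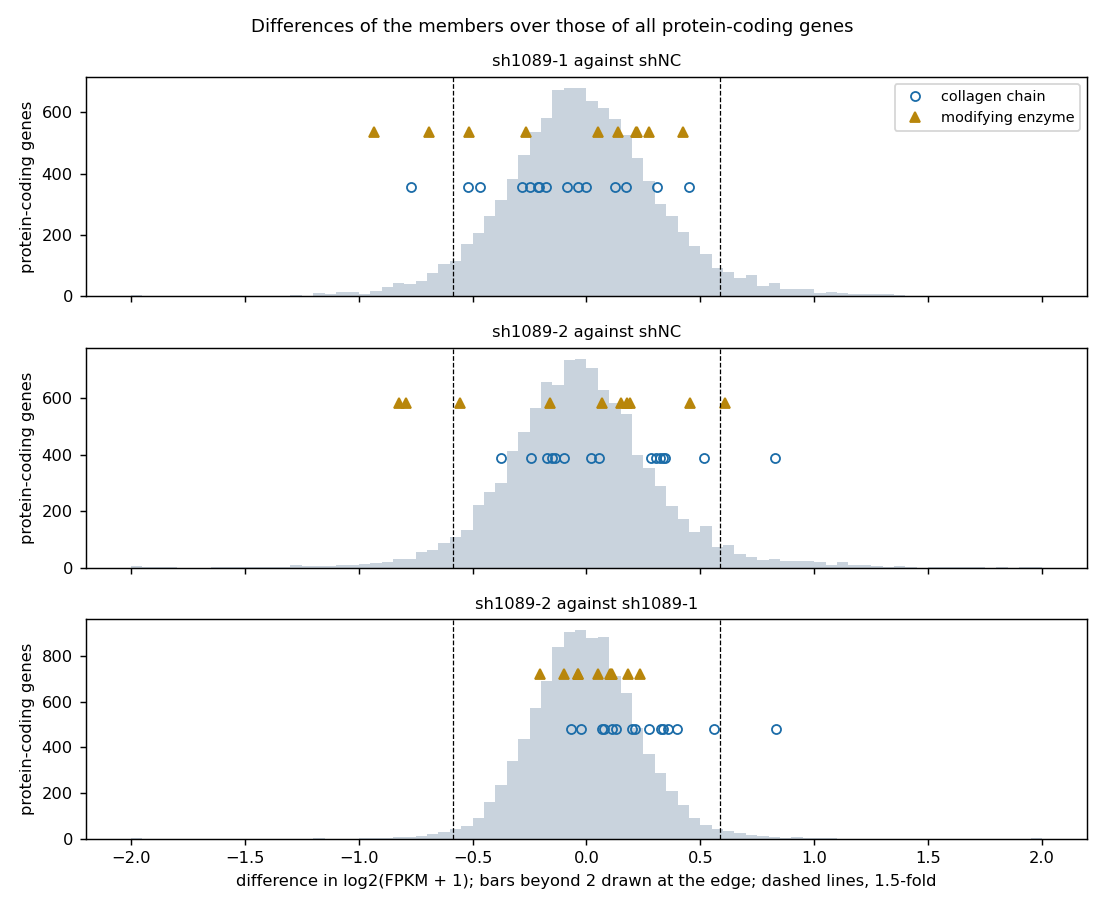
Differences in log2(FPKM + 1) of all 10313 protein-coding genes with a mean of at least 1 FPKM (grey bars, number of genes), with the collagen chains (circles) and enzymes (triangles) drawn over them at arbitrary heights, for each comparison, and dashed lines at 1.5-fold. In sh1089-2 against sh1089-1, 13 of 15 chains lie above 0.

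Of 20 genes for collagen folding and export, 18 passed the filter and none was past 1.5-fold in either hairpin library, where 4.55% of all protein-coding genes were higher and 4.56% lower in sh1089-1, and 4.04% and 4.15% in sh1089-2. Their differences in log2(FPKM + 1) ran from −0.49 to 0.47 in sh1089-1 and from −0.38 to 0.49 in sh1089-2, with medians of 0.09 and 0.03. The counting interval lay above 1 for 9 and below 1 for 6 of the 18 in sh1089-1, and above 1 for 7 and below 1 for 4 in sh1089-2. The matching share of all protein-coding genes against shNC was not computed. Intervals are narrow for genes with many reads, so these counts are not a result about the list. Chosen after their values were seen, MIA3, which helps load collagen for export, had ratios to shNC of 0.639 (0.543 to 0.750) and 0.707 (0.600 to 0.831) in sh1089-1 and sh1089-2. P3H3, of the prolyl 3-hydroxylase family, had ratios of 1.43 (1.26 to 1.64) and 1.45 (1.27 to 1.67). The most abundant were PPIB, a prolyl isomerase, at 237, 208 and 201 FPKM in sh1089-1, sh1089-2 and shNC, and P4HB, the shared beta subunit of prolyl 4-hydroxylase, at 246, 246 and 184 FPKM. P4HB was thus 1.33-fold and 1.34-fold above the control while its partner P4HA1 was below it. COLGALT1, which adds galactose to hydroxylysine, had 66.0, 68.7 and 67.2 FPKM. COLGALT2, its relative, was at 0.995, 1.72 and 0.982 FPKM, a ratio of 1.75 in sh1089-2 (1.30 to 2.35), and passed the filter only through that library. Of 9 genes for propeptide processing 4 passed the filter and none was past 1.5-fold.

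Among collagen-binding matrix genes 5 of 10 passed the filter. None was past 1.5-fold in sh1089-1, and in sh1089-2 1 was higher and 1 lower, beside the 4.04% and 4.15% of all protein-coding genes. FN1, which encodes fibronectin, had 18.5 FPKM in sh1089-1 and 32.1 in sh1089-2, against 20.2 in shNC, so sh1089-2 alone was high. LUM, a small proteoglycan of fibrils, had 1.22, 0.896 and 2.17 FPKM on 31, 20 and 62 reads and counted as lower in sh1089-2. Of 8 collagen receptors 4 passed the filter and 1 counted as lower in each hairpin library, beside the 4.56% in sh1089-1 and 4.15% in sh1089-2 of all protein-coding genes. It was ITGA2, the alpha2 integrin chain, with 2.35 and 2.47 FPKM in sh1089-1 and sh1089-2, against 5.10 in shNC. The receptors' median differences were −0.51 and −0.43. Their counting intervals lay below 1 for 4 in sh1089-1 and 3 in sh1089-2, and above 1 for 0 in either. For these counts too the share of all protein-coding genes was not computed. ITGB1, the most abundant receptor, had 68.1 and 68.7 FPKM, against 99.6 in shNC. Of 9 listed degradation genes 5 passed the filter, and 2 counted as lower in each hairpin library, beside the same 4.56% and 4.15%. These were the cathepsins CTSB (189 and 230 FPKM in sh1089-1 and sh1089-2, against 386 in shNC) and CTSL (53.8 and 70.6 FPKM, against 110.0). PLAUR, the urokinase receptor, had ratios to shNC of 0.699 (0.643 to 0.759) and 0.744 (0.684 to 0.810), and the membrane collagenase MMP14 had 49.3 and 69.5 FPKM, against 65.8. MMP9, a gelatinase, lay the other way, with 8.09 and 9.73 FPKM, against 7.04 in shNC, or 1.15-fold (0.928 to 1.42) and 1.38-fold (1.12 to 1.71). With lists of 4 and 5 genes, these shares rest on 1 or 2 genes each.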

How the data were processed

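Total RNA of 3 SK-Hep-1 lines, 1 library each, was taken up in Trizol, mRNA-enriched and made into strand-specific libraries, per the labels' protocols. The deposited table holds FPKM values computed by the authors, scaled for gene length and depth. FastQC, StringTie and build GRCh38 are listed by the submitters' processing notes. Aligner, annotation release and use of strand: not given in the sources used here.

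Symbols came from a table of gene names, and gene types, coordinates and coding lengths from GENCODE release 29 on GRCh38. FPKM steps in low genes gave each library's total and, for 19135 of 19219 genes above 0, whole reads. A fit was accepted within the rounding of the deposited values plus a small further tolerance, and the step was checked on simulated data. For 30 of the 48 collagen genes with reads the length found equalled GENCODE 29, and for 47 it lay within 5%. Reads gave 95% Clopper-Pearson intervals and the limit of 3 reads for a count of 0. Reads carry no molecular identifiers, so both cover counting error only, and no count test was run.

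Differences were taken in log2(FPKM + 1) among genes with a mean of at least 1 FPKM, and counted past 1.5-fold. All 25 genes past that filter are named, as are genes of the neighbouring lists past 1.5-fold and the most abundant or, where said, others chosen after their values were seen. The members, the lists and the promoters were chosen with earlier results of these data known. Alternatives in pseudocount, filter, scaling and fold were computed with Python 3.11.15, numpy 2.4.6, pandas 2.3.3 and scipy 1.17.1.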

Additional observations from a re-analysis of the deposited data

How the results depend on the processing

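COL6A1, LOX and PLOD2 in sh1089-1, and LOX and PLOD2 in sh1089-2, were the lower genes under every other pseudocount, filter and scaling tried, except that P4HA1 joined them in sh1089-2 at a pseudocount of 0.1. Under these settings 3.16% to 8.35% of all protein-coding genes were lower in sh1089-1, and 2.82% to 7.28% in sh1089-2. At 2-fold in log2(FPKM + 1), 0 genes were higher or lower in each of the 3 comparisons. Of all protein-coding genes, 0.834% were higher and 0.688% lower in sh1089-1 against shNC at that fold. The shares were 1.02% and 0.679% in sh1089-2 against shNC, and 0.107% and 0.0776% between the hairpin lines. As plain ratios, COL9A2 (2.79) and COL6A3 (2.14) passed 2-fold in sh1089-2 over sh1089-1, and COL9A2 (2.78) in sh1089-2 over shNC. In sh1089-2 against shNC, 1 gene, LOXL1, was higher at a mean FPKM of at least 5, 5.88% beside 4.68% of all protein-coding genes. As TPM 3 were higher, with COL13A1, 12.0% beside 7.05%. Between the hairpin lines the count of higher genes was 2, or 8.0%, with COL6A3 at a pseudocount of 0.1 or 0.5 or as TPM. The shares of all protein-coding genes were then 3.14%, 1.92% and 2.96%. At a mean FPKM of at least 5 the count was 0, beside 0.736%, and the median difference was 0.035 with no filter. By coding length, chosen after the data were seen, COL4A1 over COL4A2 was 0.297, 0.332 and 0.445 in sh1089-1, sh1089-2 and shNC, COL4A5 over COL4A6 0.496, 0.565 and 0.496, and COL5A1 over COL5A2 0.192, 0.221 and 0.136. The change of length multiplies a ratio by the same factor in each library, so it bears on its level alone. Of 300 recomputed differences of single genes 297 stayed within their counting error. Outside it was COL6A3 between the hairpin lines, at 0.56 in the main setting, 1.00 at a pseudocount of 0.1 and 0.88 as TPM. LOXL2 in sh1089-2 against shNC was too, at 0.46 in the main setting and 0.53 as TPM. These settings express the same reads on another scale. No paired analysis was possible because each group holds 1 library. For the same reason no replicate could be left out, and the depth limits single genes below 1 FPKM.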
